A study of Mus musculus with 84 samples.

Results

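Epididymal white adipose tissue (eWAT), the large visceral fat pad of male mice, was compared between mice dosed with semaglutide at 20 nmol/kg and mice dosed with vehicle. The comparison rests on 12 of the 84 libraries in the series, 6 per group, which were taken by tissue and treatment label. All mice were male C57BL/6J made obese on a high-fat diet, and each received a daily subcutaneous injection for 30 days. Semaglutide is an acylated agonist of the GLP-1 receptor. The vehicle group received the buffer alone, and both groups shared strain, sex, diet and dosing route. Where the same genes are set beside other groups, these are eWAT of 6 mice on semaglutide at 100 nmol/kg, eWAT of 6 mice on the dual glucagon and GLP-1 receptor agonist BI 456906 at 20 nmol/kg, and the livers of the vehicle and semaglutide 20 nmol/kg groups. Libraries are called by the number in their titles, 1 to 6 for vehicle and 31 to 36 for semaglutide. The 12 libraries held 40313670 to 53996914 reads on genes, with overlapping ranges in both groups.

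Fat tissue stores triglyceride in large fat cells, which take up fatty acids from lipoproteins, make some of their own from glucose under insulin, and release them by lipolysis between meals. Its transcripts follow fat cell size and insulin, and the tissue also holds macrophages, stromal progenitors, vessels and, in lymph nodes or milky spots, lymphocytes. GLP-1 receptor agonists lower food intake through receptors in the brain, and mouse fat cells are not a known main site of that receptor. In the sequenced tissue Glp1r, the receptor of semaglutide, had 0 to 3 reads in each vehicle library and 0 to 2 in each semaglutide library. These are too few reads to compare the groups.

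The labelled tissue was checked first. The 12 fat cell identity genes summed to 22470 to 39500 TPM (a length-scaled share of a library's transcripts) in vehicle and 20810 to 32380 TPM under semaglutide, ranges that overlap. All 14 epididymis markers stayed under 1 TPM in every library, as did 7 of 8 exocrine pancreas markers. The remaining pancreas marker, the only 1 tested, had a log2 fold change of -0.77. It passed the FDR limit given next but not the minimum fold. The pancreas list summed to 28.76 to 79.67 TPM in vehicle and 21.51 to 37.52 TPM under semaglutide. Transcripts of hepatocytes and of B cells did not stay low. The 18 hepatocyte genes summed to 147.5 TPM in vehicle library 1, to 2081 to 11270 TPM in the other vehicle libraries and to 400.2 to 1172 TPM under semaglutide. Alb, the liver's serum albumin, was at 9.87 TPM in vehicle library 1, 3680 TPM in vehicle library 2 and 18.6 to 79.4 TPM under semaglutide. Genes with a mean of at least 1 TPM in liver and at least 10 times their eWAT median were therefore counted apart. Of the 684 such genes that could be tested, 167 (24.4%) were lower and 0 higher by the rule given next, with a median log2 fold change of -2.15. The rule also removes genes that fat itself uses, such as Rbp4, Gys2 and Fads2. The 12 B cell and plasma cell genes summed to 10360 TPM in vehicle library 1 and 10770 TPM in vehicle library 3, against 368.8 to 1255 TPM in the other vehicle libraries and 151.8 to 1038 TPM under semaglutide.

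**Figure D1:**
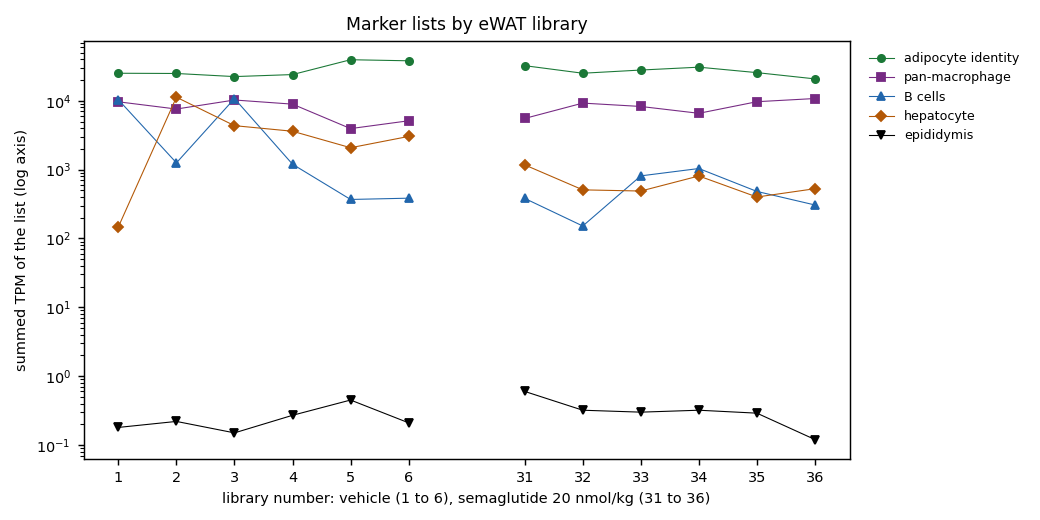
Summed TPM (log axis) of the marker lists for fat cells, macrophages, B cells, hepatocytes and epididymis in each of the 12 eWAT libraries; lines join libraries of a group only to guide the eye. Hepatocyte transcripts are lowest in vehicle library 1 and highest in vehicle library 2 (11270 TPM), B cell transcripts are highest in vehicle libraries 1 and 3, and epididymis markers stay at or below 0.6 TPM.

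Semaglutide at 20 nmol/kg was followed by more falls than rises, though not in every alternative fit. Among 17852 tested genes that were not counted apart, 55 (0.308%) were higher and 193 (1.08%) lower, at a log2 fold change of at least 1 in size and a false discovery rate (FDR) of at most 0.05 in limma/voom. These are the genes called below. With hepatocyte transcripts as a covariate, added after seeing the data, 256 were higher and 240 lower. At the FDR alone, without a minimum fold, 333 genes (1.87%) were higher and 643 (3.6%) lower, and the median log2 fold change over all tested genes was 0.00. At an unadjusted p under 0.05 in limma/voom there were 3469 of the 17852 genes. Counts of list members at that p, given below, are to be read against this share. Of the 248 called genes 183 code for protein. The 6 TPM values of a group did not overlap the other 6 in 96 of the 248 called genes, against 442 (2.48%) of all tested genes. In bulk tissue, fewer cells of a type and less RNA per cell cannot be told apart, and this holds for every result that follows.

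Among called genes of at least 1 TPM whose groups did not overlap, the largest fall was in Oxtr, the receptor for oxytocin (chr6:112473683-112489943, GRCm38). Its level was 31.8 to 51 TPM (median 38.6) in vehicle and 1.68 to 8.08 TPM (median 4.66) under semaglutide. No semaglutide library came near the lowest vehicle library, and the log2 fold change was -3.27 ± 0.43 (SE, n = 6 per group; FDR 1.83e-05), a 9.62-fold difference. Tph2, which makes the precursor of serotonin, went from 4.55 to 22.1 TPM (median 11.7) in vehicle to 0.36 to 2.78 TPM (median 1.37), a log2 fold change of -3.15 ± 0.59 (FDR 0.00106). Slc5a7, the choline transporter, fell from a median of 17 TPM to 3.12 TPM (log2 fold change -2.54 ± 0.41, FDR 0.000265). All of these are best known from nerve cells or hormone-responsive tissue, and in vehicle fat they were well above detection, with at least 382 reads in each library.

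Mest, an imprinted gene that follows fat cell enlargement (chr6:30723547-30748465), stood at 174 to 498 TPM (median 247) in vehicle and 25.5 to 127 TPM (median 37) under semaglutide. It overlaps Copg2 and an antisense gene on the other strand. The groups did not overlap, and the log2 fold change was -2.70 ± 0.61 (FDR 0.00487). Peg10, also imprinted and derived from a retrotransposon (chr6:4747306-4760517), went from 11.8 to 34.1 TPM (median 15.9) to 2.4 to 3.53 TPM (median 2.87), with a log2 fold change of -2.63 ± 0.38 (FDR 7.05e-05). Of 15 imprinted genes, a list drawn up after these values were seen, Mest and Peg10 were the 2 called. The other 13 were not, and the median log2 fold change of the list was 0.04.

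The remaining large falls were in genes of lower level. Mogat2, which adds a fatty acid to monoacylglycerol, went from 3.51 to 9.87 TPM (median 5.4) to 0.42 to 1.55 TPM (median 1.19), a log2 fold change of -2.52 ± 0.43. Lipf, a secreted lipase best known from the stomach, had a median of 4.33 TPM in vehicle and 0.725 TPM under semaglutide (log2 fold change -2.65 ± 0.41). Gas2l2, a protein that links actin to microtubules, had medians of 2.19 and 0.385 TPM (-3.06 ± 0.53), and Pex5l, a brain relative of the peroxisomal import receptor, medians of 2.67 and 0.58 TPM (-2.17 ± 0.31). The antisense RNA Gm12236, which lies opposite Glra1, and the transcribed pseudogenes Gm9696 and 9030619P08Rik complete the 12 largest falls. Their log2 fold changes were -3.13 ± 0.49, -2.32 ± 0.41 and -2.32 ± 0.47, and Gm12236 rests on 2 to 12 reads per semaglutide library. Reads of pseudogenes can be shared with their parent genes.

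**Figure D2:**
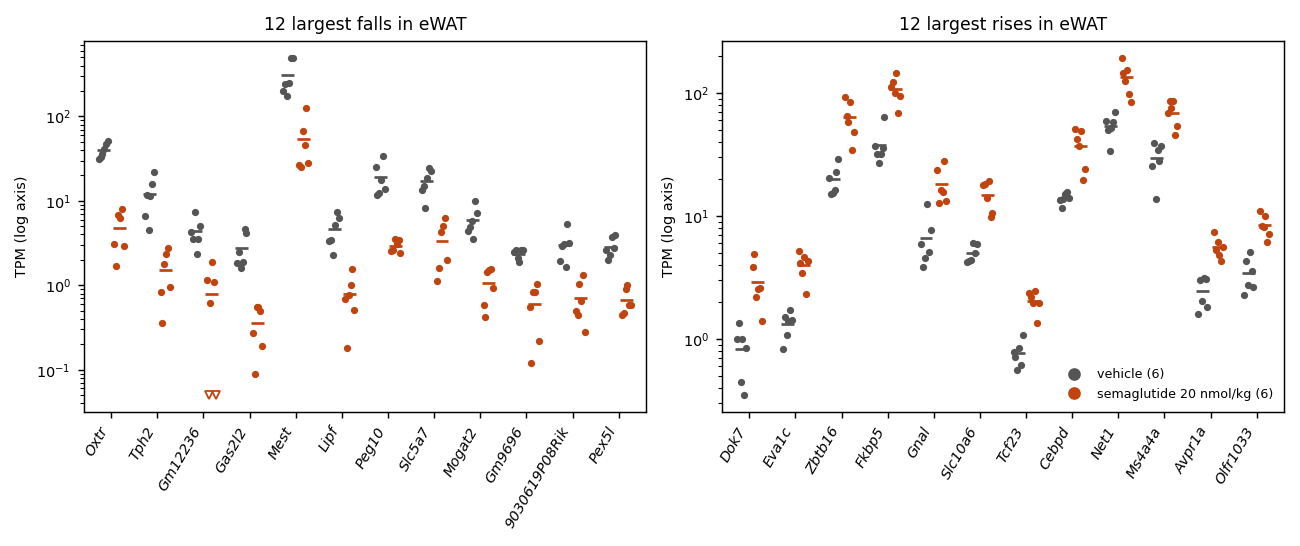
TPM (log axis) in each vehicle library (grey) and each semaglutide library (orange) of the 12 genes with the largest fall and the 12 with the largest rise; bars are means of 6, and open triangles mark libraries at 0 TPM, drawn at the foot of the panel. Both sets were picked from called genes whose 6 values do not overlap, so the gap between colours is part of the choice, and Oxtr shows the widest one among the falls.

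The 12 largest rises held several regulators. Fkbp5, the co-chaperone that holds back the glucocorticoid receptor (chr17:28399094-28517527), was at 27.2 to 64 TPM (median 33.8) in vehicle and 68.5 to 144 TPM (median 106) under semaglutide. The highest vehicle value came close to the lowest semaglutide value, and the log2 fold change was 1.57 ± 0.41 (FDR 0.0172). Zbtb16, the zinc finger repressor PLZF (chr9:48654297-48836222), went from 15.2 to 29 TPM (median 18.3) to 34.7 to 92.1 TPM (median 61.5), with a log2 fold change of 1.61 ± 0.43 (FDR 0.0177). Cebpd, a transcription factor of early fat cell formation, was at 11.6 to 15.8 TPM (median 13.8) in vehicle and 19.8 to 51 TPM (median 39.6) under semaglutide (log2 fold change 1.29 ± 0.28, FDR 0.00428). Cebpd lies within the span of Spidr on the other strand, and its 2 lowest semaglutide libraries were 35 and 36.

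Net1, an activator of the small GTPase RhoA, went from a median of 55.4 TPM to 136 TPM (log2 fold change 1.27 ± 0.26, FDR 0.00265). Slc10a6, a carrier of steroid sulphates, was at 4.26 to 6.08 TPM in vehicle and 9.81 to 19.2 TPM under semaglutide (1.49 ± 0.27, FDR 0.000978). Avpr1a, a vasopressin receptor, went from 1.59 to 3.12 TPM to 4.28 to 7.47 TPM (1.20 ± 0.20, FDR 0.000472), in the same fat in which the receptor of the related hormone oxytocin fell. Gnal, the G protein subunit of olfactory neurons, had medians of 5.5 and 16.1 TPM (a 2.82-fold rise, FDR 0.00223), and Ms4a4a, a membrane protein of macrophages, medians of 31.4 and 72 TPM (1.22 ± 0.31). Dok7, an adaptor of the muscle synapse, Eva1c and Tcf23 rose from medians of 0.92, 1.41 and 0.75 TPM, with log2 fold changes of 1.81 ± 0.48, 1.63 ± 0.32 and 1.37 ± 0.30. The olfactory receptor gene Olfr1033 (1.19 ± 0.21) belongs to a large family with similar members. Ms4a4a and Olfr1033 were no longer called without vehicle libraries 1 and 3, at log2 fold changes of 0.90 and 0.97. Zbtb16, Fkbp5 and Net1, together with Dok7, Tcf23 and Ms4a4a, were no longer called when vehicle libraries 2, 3 and 4, those highest in Alb, were left out, with values of 1.29, 1.28, 1.02, 1.95, 1.24 and 1.10. Leaving out those libraries also makes the vehicle group smaller, and Dok7 lost its call there at a larger fold than with all libraries. With hepatocyte transcripts as a covariate, each of them stayed called, at 1.97, 1.69, 1.45, 2.18, 1.67 and 1.25 in the same order. That covariate is partly confounded with treatment, since its sum was higher in every vehicle library but library 1 than under semaglutide. It also raised the genes called higher from 55 to 256, so a call kept there decides little. Dok7 also lost its call without vehicle library 3 alone (1.63) or 5 alone (1.65).

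Most genes on a list of those that follow fat mass fell. The list was drawn up with earlier results of these data known, so its count is not independent support. Of the 7 on the list, 4 were called lower and 0 higher, and the median log2 fold change was -1.16. Lep, the satiety hormone leptin (chr6:29060220-29073877), was at 810 to 1646 TPM (median 965) in vehicle and 162.7 to 529 TPM (median 327) under semaglutide, without overlap. Its log2 fold change was -1.81 ± 0.43 (FDR 0.00842), a 3.51-fold difference. Trp53inp2, a regulator of autophagy, went from 229 to 398 TPM (median 254) to 96.7 to 162.7 TPM (median 117), with a log2 fold change of -1.20 ± 0.20 (FDR 0.000376). Bmp3, a secreted member of the TGF-beta family, had medians of 28 and 14.7 TPM and groups that overlapped (-1.16 ± 0.35, FDR 0.0379). It lost its call when any one of 7 libraries was left out in turn. Npr3, Sfrp5 and Vldlr were not called, at -1.05 ± 0.36, -0.82 ± 0.45 and -0.23 ± 0.19. The fourth called gene was Mest. The count was 3 without vehicle library 2, 4 without vehicle libraries 1 and 3 or without 2, 3 and 4, and 5 by edgeR's quasi-likelihood fit and by DESeq2.

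Of 12 genes of fat cell identity 0 were called by limma/voom, the quasi-likelihood fit or DESeq2, 3 had an unadjusted p under 0.05, and the median log2 fold change was -0.21. Adipoq, the fat cell hormone adiponectin, was at 1592 TPM (median) in vehicle and 1746 TPM under semaglutide with broad overlap (log2 fold change -0.11 ± 0.29, FDR 0.869). Retn, the hormone resistin, gave 0.03 ± 0.41 (FDR 0.981). Lpl, the lipase that frees fatty acids from lipoproteins, was lower in every semaglutide library than in any vehicle library, though by less than the minimum fold (-0.52 ± 0.09, FDR 0.00031). Gpd1, which supplies the glycerol backbone, gave -0.69 ± 0.18 (FDR 0.0178).

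Some enzymes of fatty acid and triglyceride synthesis fell. Of 16 tested genes of de novo lipogenesis, 3 were called lower, 8 were lower at the FDR alone, 0 were higher by either, and the median log2 fold change was -0.40. Scd2, a desaturase, went from 32.7 to 107 TPM (median 56) to 14.9 to 36.1 TPM (median 24.2), with a log2 fold change of -1.41 ± 0.26 (FDR 0.001). Only vehicle library 1 lay within the semaglutide range. Pnpla3, a lipid droplet protein controlled by feeding, went from 13.8 to 24.9 TPM to 4.56 to 11.5 TPM (-1.24 ± 0.29, FDR 0.00796). Fasn, the fatty acid synthase, was at 148 to 648 TPM (median 264) in vehicle and 90.5 to 187 TPM (median 153) under semaglutide. Its log2 fold change was -1.12 ± 0.34 (FDR 0.042), and it lost its call in 15 of 26 alternatives, among them leaving out vehicle library 5 (-0.86), whose Fasn level was the highest. Elovl6, which lengthens fatty acids, stood just short of the fold limit (-0.99 ± 0.20, FDR 0.00219). Acly, which makes acetyl-CoA for the pathway, fell by a small and tight amount (-0.27 ± 0.06, FDR 0.00621).

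Of 10 tested genes of triglyceride assembly, 2 were called lower and 0 higher, with a list median of -0.12. These were Mogat2 and Dgat2, the enzyme of the last step. Dgat2 was at 574 to 1147 TPM (median 751) in vehicle and 132 to 384 TPM (median 292) under semaglutide, without overlap, a log2 fold change of -1.64 ± 0.39 (FDR 0.00839). Agpat2, which acts earlier in the pathway, gave -0.81 ± 0.19 (FDR 0.00623). In the insulin and glucose list 1 of 19 genes was called. Irs3, a substrate of the insulin receptor in rodent fat, went from 25.6 to 56.1 TPM (median 35.8) to 12.7 to 18.7 TPM (median 16), with a log2 fold change of -1.23 ± 0.25 (FDR 0.00182). Pfkfb3, which speeds glycolysis, gave -0.92 ± 0.25 (FDR 0.0197), while the list median was -0.10. By contrast, 0 of 16 lipolysis genes, 0 of 12 fatty acid oxidation genes, 0 of 17 genes of branched-chain amino acid breakdown and 0 of 13 thermogenic genes were called, and none of them passed the FDR alone in limma/voom. At an unadjusted p under 0.05 the counts were 3, 1, 0 and 2, and the quasi-likelihood fit and DESeq2 called 0 in each list. Ucp1, the uncoupling protein of brown fat, was between 0.03 and 0.56 TPM in all 12 libraries.

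**Figure D3:**
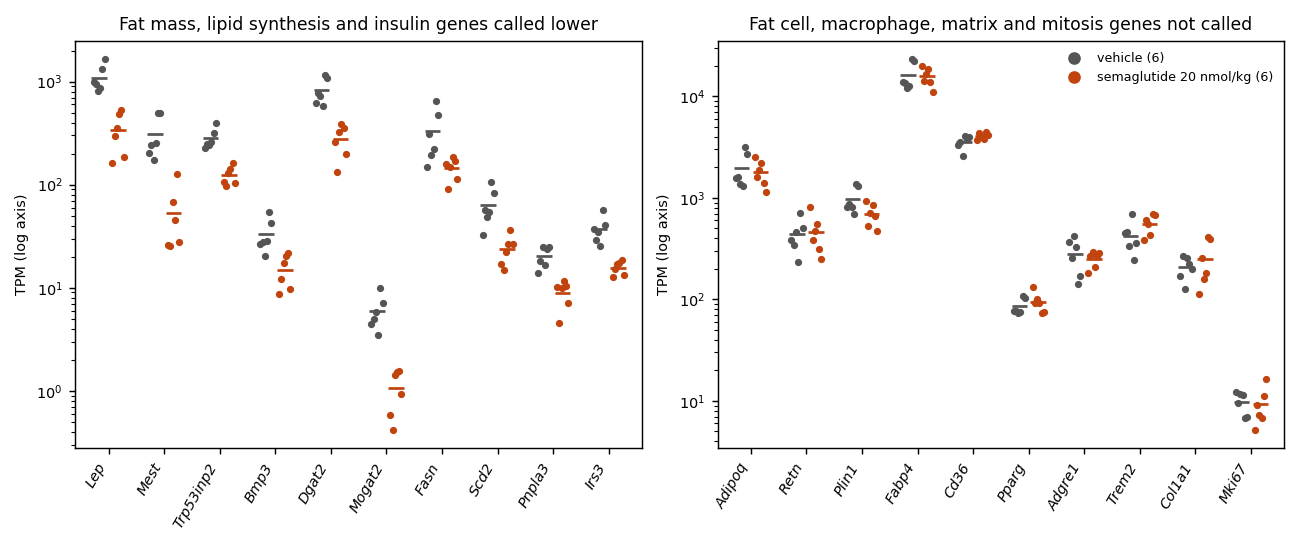
TPM (log axis) per library in vehicle (grey) and under semaglutide (orange), with bars at the mean of 6. Left, genes of fat mass, lipid synthesis and insulin action that were called lower, with Lep below its lowest vehicle value of 810 TPM in all 6 semaglutide libraries; right, fat cell, macrophage, matrix and mitosis genes that were not called.

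A pair of acute phase proteins fell. Of 25 inflammatory mediators 2 were called lower and 0 higher, and the median log2 fold change was -0.44. Orm1, the plasma protein orosomucoid, went from 176 to 454 TPM (median 256) to 71.6 to 164 TPM (median 122), a log2 fold change of -1.32 ± 0.30 (FDR 0.00496). Hp, haptoglobin, which binds free haemoglobin, was at 1962 to 3477 TPM in vehicle and 710 to 2118 TPM under semaglutide (-1.05 ± 0.28, FDR 0.0173). The groups overlapped through semaglutide library 35, and Hp lost its call without any one of vehicle libraries 5 and 6 and semaglutide library 36. Both are also made by hepatocytes, though neither met the rule for genes counted apart. In vehicle library 1, with the least hepatocyte RNA, Orm1 was at 176 TPM and Hp at 1962 TPM, the lowest vehicle values.

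The macrophage lists held no called gene, though Ms4a4a, which is on none of them, rose. Of 14 general macrophage genes, 21 genes of the lipid-associated macrophages that surround dying fat cells and 14 genes of resident macrophages, 0 were called by limma/voom, the quasi-likelihood fit or DESeq2, and the list medians were 0.02, 0.35 and 0.26. The counts at an unadjusted p under 0.05 were 2, 3 and 4, and Lpl, also a fat cell gene, was the 1 member lower at the FDR alone. Adgre1, which encodes F4/80, was at a median of 291 TPM in vehicle and 267 TPM under semaglutide (log2 fold change -0.09 ± 0.29, FDR 0.903). Trem2, a lipid receptor of these macrophages, gave 0.39 ± 0.30 (FDR 0.492). Likewise 0 of 30 collagen and matrix genes, 0 of 12 endothelial genes, 0 of 14 fibroblast and preadipocyte genes and 0 of 22 proliferation genes were called by any of these tools. At an unadjusted p under 0.05 in limma/voom there were 7, 1, 3 and 0, against 3469 of all 17852 tested genes. Col1a1 gave 0.15 ± 0.37 (FDR 0.862) and Mki67 -0.14 ± 0.29 (FDR 0.829).

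Some B cell genes fell, and most of these calls rested on 2 vehicle libraries. Of 12 such genes 5 were called lower and 0 higher (median log2 fold change -1.71). Ighm, the heavy chain of IgM, was at 4447 TPM in vehicle library 1 and 7167 TPM in vehicle library 3, at 338 to 585 TPM in the other 4 and at 83.6 to 497 TPM under semaglutide (-2.26 ± 0.69, FDR 0.0411). Cd79a, a signalling chain of the B cell receptor, gave -2.09 ± 0.65, Ms4a1, a B cell surface protein, gave -1.89 ± 0.58, and Ighd, the IgD chain, gave -1.79 ± 0.41. Without vehicle libraries 1 and 3 the count was 1 gene, Ighd. With all libraries kept, edgeR's quasi-likelihood fit called 10 of the 12 and DESeq2 called 11. Ciita, the switch for class II antigen presentation, showed the same 2 libraries, at 37 and 50.5 TPM against 9.54 to 12.5 TPM in the other vehicle libraries and 5.49 to 10.4 TPM under semaglutide. It was the 1 gene called of 13 in its list (-1.44 ± 0.35, FDR 0.0104), and gave -0.79 without those libraries. In its list the quasi-likelihood fit and DESeq2 called 6 each. Of 18 T and natural killer cell genes 0 were called by limma/voom, 3 by the quasi-likelihood fit and 5 by DESeq2, all lower, with 4 at an unadjusted p under 0.05 in limma/voom. Their median was -0.68, with sums of 227.7 and 305.6 TPM in vehicle libraries 1 and 3 against 29.02 to 90.27 TPM in the other 10.

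Some genes known to be raised by glucocorticoids rose. Their list too was drawn up with earlier results of these data known, so its count is not independent support. Of the 13 on the list 3 were called higher (Fkbp5, Zbtb16 and Cebpd), 6 were higher at the FDR alone, 0 were lower, and the median log2 fold change was 0.66. Tsc22d3, the anti-inflammatory protein GILZ, was at 154 to 254 TPM (median 216) in vehicle and 284 to 582 TPM (median 432) under semaglutide, without overlap, and just missed the minimum fold (1.00 ± 0.25 after rounding, FDR 0.0108). Sgk1, a kinase that regulates ion channels, was higher in every semaglutide library than in any vehicle library (0.79 ± 0.14, FDR 0.000689). Per1 belongs to this list and to the clock. Without vehicle libraries 2, 3 and 4 the count of called genes was 1, and without vehicle libraries 1 and 3 it was 4.

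Clock genes moved in opposite directions. The clock is a loop in which ARNTL with CLOCK or NPAS2 drives the Per, Cry, Nr1d1 and Dbp genes, and NR1D1 in turn represses Arntl and Npas2. Of 18 tested genes 1 was called lower and 1 higher, while at the FDR alone 2 were lower and 4 higher. Nr1d1, the repressor REV-ERB alpha (chr11:98767932-98775333), went from 13.2 to 40.9 TPM (median 23.6) to 6.52 to 10.9 TPM (median 8.46), without overlap, a log2 fold change of -1.47 ± 0.25 (FDR 0.000472). It overlaps Thra on the other strand. Dbp, an output factor of the clock, had medians of 36.1 and 21.3 TPM (-0.81 ± 0.17, FDR 0.0029), with vehicle library 3 inside the semaglutide range.

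Npas2, on the side that NR1D1 represses, went from 1.09 to 3.89 TPM (median 1.81) to 3.02 to 5.56 TPM (median 3.75). Its log2 fold change was 1.07 ± 0.29 (FDR 0.0186). It lost its call in 11 of 26 alternatives, at 0.72 without vehicle libraries 1 and 3. Arntl gave 0.44 ± 0.14 (FDR 0.0478) and Cry1 0.30 ± 0.09 (FDR 0.0302), both small and both without overlap between groups. Per1 had medians of 31.8 and 64.6 TPM (0.77 ± 0.16, FDR 0.00276), with only vehicle library 4 within the semaglutide range. In the loop described above, Per1 and Cry1 stand on the driven side with Nr1d1 and Dbp. Genes of that side therefore moved in both directions. The labels give no hour of tissue collection, so a difference in clock phase or in hour between groups was not tested.

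**Figure D4:**
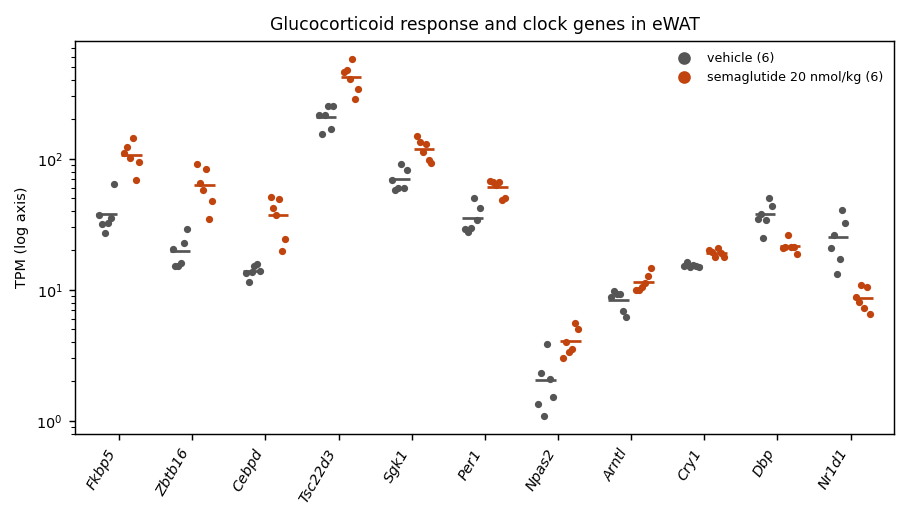
TPM (log axis) per library of glucocorticoid response and clock genes in vehicle (grey) and under semaglutide (orange), with bars at the mean of 6. From Fkbp5 to Cry1 the semaglutide means are higher, and for Dbp and Nr1d1 they are lower.

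Letters of known response elements near the start sites of these genes are shown for orientation. The 250 bases before each start in RefSeq (GRCm38.p6) were searched on both strands for CACGTG, the E-box bound by the ARNTL dimer, and for ACANNNTGT, a loose form of the glucocorticoid receptor element. The E-box was in 6 of 21 promoters of 16 clock genes (28.6%) and in 6.02% of all promoters searched. Searched in the same way, the RORE string NAGGTCA was in 4 of those 21 (19%) and in 14% of all. The D-box string TTATGNAA was in 2 of the 21 (9.52%) and in 3.07% of all. The glucocorticoid form was in 4 of 18 promoters of 10 genes of the glucocorticoid list (22.2%) and in 5.84% of all. The E-box was in 4 of the same 18 promoters (22.2%), so the glucocorticoid form was no more frequent there than the E-box. Promoters of 1 gene can overlap and are not independent. For clock genes that passed the FDR the E-box matches, and for glucocorticoid genes that passed it the ACANNNTGT matches, are printed 5′ to 3′ with the match in capitals, and a match is not evidence of binding.
Per1, chr11:69098771-69098800, + strand: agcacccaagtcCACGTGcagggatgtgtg
Cry1, chr10:85185097-85185126, - strand: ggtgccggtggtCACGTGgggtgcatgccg
Sgk1, chr10:21978535-21978563, + strand: tctgtttgaaACAGTTTGTctacatagct
Sgk1, chr10:21993694-21993722, + strand: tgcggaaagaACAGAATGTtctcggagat
The other E-box matches of the clock list were in Tef, Ciart and Bhlhe41, and the start-site windows of Nr1d1, Dbp, Npas2 and Arntl held none of these strings. Fkbp5 and Sgk1 also held an E-box, not printed, and Fkbp5 and Tsc22d3 held no ACANNNTGT. Zbtb16 and Cebpd had no promoter in the set, so they were not searched.

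A list of receptors for incretins and other hormones, which does not hold Oxtr or Avpr1a, had 0 of 11 tested genes called by limma/voom or the quasi-likelihood fit and 1 called higher by DESeq2. At an unadjusted p under 0.05 there were 5, and Fgfr1, a growth factor receptor, was higher at the FDR alone (0.37 ± 0.12, FDR 0.0452). Gipr, the receptor of the other incretin, was at 5.45 to 11.6 TPM in vehicle and 3.5 to 6.05 TPM under semaglutide (-0.72 ± 0.24, FDR 0.0629). Gcgr, the glucagon receptor, was counted apart because of its liver level. Cholesterol synthesis had 0 of 17 genes called by any of these tools, 8 at an unadjusted p under 0.05 and 2 lower at the FDR alone. These were Nsdhl (-0.62 ± 0.13, FDR 0.00218) and Hmgcs1 (-0.68 ± 0.16, FDR 0.00839). Of 8 tested muscle genes 1 was called, the calcium buffer Pvalb (-2.48 ± 0.47, FDR 0.00125), at medians of 3.13 and 0.555 TPM, while the muscle actin Acta1 gave -0.70 ± 0.36 (FDR 0.259). In limma/voom 0 genes were called among 19 interferon-stimulated, 8 mesothelial, 5 erythroid and 9 adipokine genes, the latter leaving out leptin, with 7, 0, 0 and 3 at an unadjusted p under 0.05. The quasi-likelihood fit and DESeq2 each called 3 interferon-stimulated genes lower and 0 in the other lists. Of these, Ifit3 (-0.56 ± 0.17, FDR 0.046) and Fst (0.83 ± 0.26, FDR 0.0455) passed the FDR alone.

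Another group received semaglutide at 100 nmol/kg, which allowed a comparison of doses that does not use vehicle. Between 100 and 20 nmol/kg 0 of 17852 genes (0%) were called by limma/voom or by the quasi-likelihood test. At an unadjusted p under 0.05 these gave 687 and 878 genes, where chance alone gives about 1 in 20. DESeq2 called 5. All of those 5, Saa3, Il1r2, Retnlg, Wnt4 and Tgm1, were highest in library 40 of the higher dose, where Saa3 was at 770 TPM against 9.64 to 63.1 TPM in the other 5. For several genes that fell, the estimate was lower at the higher dose without passing the test. The log2 difference was -0.84 for Lep (95% interval -1.56 to -0.12), -1.22 for Mest (-2.25 to -0.20), -1.27 for Oxtr (-2.39 to -0.16) and -0.84 for Dgat2 (-1.50 to -0.19), each at an FDR of 0.969. For Fkbp5 it was 0.02 (-0.85 to 0.90) and for Nr1d1 -0.10 (-0.65 to 0.45). These intervals are for single genes, without adjustment for the number of genes tested. Over the 248 called genes the median half-width of the interval was 0.75, so a p that misses the threshold does not show that the doses act alike.

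BI 456906 was given at the same 20 nmol/kg, so the 2 compounds could be compared at equal dose in 1 pair of groups. Of the same 17852 genes 0 (0%) were called by limma/voom and by the quasi-likelihood test. At an unadjusted p under 0.05 these gave 806 and 856 genes, where chance alone gives about 1 in 20. DESeq2 called 2, Acta1 and the immunoglobulin segment Iglv3. Iglv3 was at 123.6 TPM in 1 BI 456906 library and at most 1.28 TPM in the other 5. The log2 difference, BI 456906 minus semaglutide, was 0.49 for Lep (95% interval -0.29 to 1.26), 0.41 for Oxtr (-0.47 to 1.29), 0.02 for Trp53inp2 (-0.35 to 0.38), -0.72 for Fkbp5 (-1.56 to 0.12) and 0.65 for Nr1d1 (0.14 to 1.16), each at an FDR of at least 0.984. Intervals this wide, which are not adjusted for the number of genes tested, do not show that the compounds act alike.

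Each comparison with vehicle uses the same 6 vehicle libraries, so their values are set side by side only. For Lep the log2 fold change was -1.81 at 20 nmol/kg of semaglutide, -2.65 at 100 nmol/kg and -1.32 for BI 456906. For Nr1d1 the values were -1.47, -1.57 and -0.82, and for Fkbp5 1.57, 1.59 and 0.85.

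**Figure D5:**
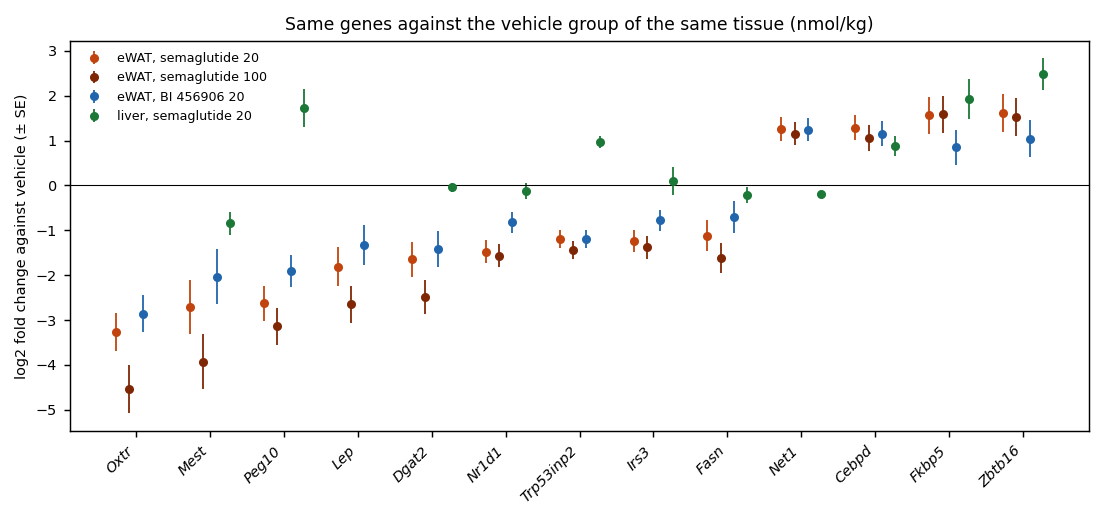
Log2 fold change against the vehicle group of the same tissue, with SE bars, for semaglutide at 20 and 100 nmol/kg and BI 456906 at 20 nmol/kg in eWAT and for semaglutide at 20 nmol/kg in liver; the eWAT points share 1 vehicle group. Oxtr and Lep have no liver point because they did not pass the count filter there, and Peg10 and Trp53inp2 lie on opposite sides of 0 in the tissues.

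The response in fat was also compared with that in liver as a difference of differences, over 14617 genes tested in both tissues and not counted apart. It differed in 4450 of them (30.4%) at an FDR of at most 0.05. All 84 libraries entered that fit as separate samples. Their titles name no mouse, so any sharing of mice between tissues was not modelled. Liver library 77 of the semaglutide group held 21676902 reads, fewer than the other livers, and its part in these differences was not tested. Trp53inp2 fell in fat and rose in liver (log2 fold change in liver 0.96 ± 0.14), a difference between tissues of -2.09 ± 0.24 (interaction FDR 1.22e-09). Peg10 rose in liver from a mean of 0.103 TPM to 0.425 TPM (1.73 ± 0.42), a difference of -4.29 ± 0.83 (FDR 4.62e-05). Nr1d1 gave -0.13 ± 0.18 in liver and a difference of -1.27 ± 0.38 (FDR 0.00727). Dbp fell in liver too (-0.90 ± 0.16), and its difference of 0.17 ± 0.26 did not pass the threshold (FDR 0.661). Net1 rose in fat and fell slightly in liver (-0.19 ± 0.05), a difference of 1.53 ± 0.27 (FDR 1.05e-05). Dgat2 gave -0.03 ± 0.10 in liver and a difference of -1.53 ± 0.40 (FDR 0.00189). The glucocorticoid response genes Fkbp5 and Zbtb16 rose in liver, by log2 fold changes of 1.93 ± 0.44 and 2.48 ± 0.35, and the difference between tissues was not past the threshold for either (FDR 0.756 and 0.291).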

How the data were processed

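RNA was sequenced from eWAT and liver of the same study. The deposited signal table holds reads per gene that the authors divided by 1 size factor per library, and the deposited TPM table holds levels scaled for gene length and library. The submitters' processing notes name STAR 2.5.2b, RSEM 1.3.0, featureCounts 1.5.1, FastQC 0.11.5 and the mouse build mm10 (GRCm38). Sources for the library kit differ, so strand use in counting is not settled, and reads of overlapping genes on opposite strands cannot be told apart.

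The scaled values themselves were passed to limma 3.58.1 (voom, pseudocount 0.5, TMM factors and filterByExpr from edgeR 4.0.16, R 4.3.3). All 7 eWAT groups were in 1 fit. Whole reads were recovered from the scaled values (100% whole, tolerance 1e-06). They were used for read numbers and in the edgeR quasi-likelihood and DESeq2 alternatives. P-values were adjusted by Benjamini-Hochberg over all tested genes. The whole fit tested 18536 of 48794 listed genes. The procedure was tested on simulated data. Alternatives used DESeq2 1.42.0, edgeR's quasi-likelihood test, log2(TPM + 1) and log2(TPM + 0.1), other filters and factors, and libraries left out. Replicate libraries differed beyond sampling noise (chi-square per degree of freedom at least 22.4 over 30 pairs), and the labels do not say more about their source than separate samples, so p-values measure the spread between these samples.

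Named genes were the 12 largest rises and 12 largest falls among called genes with a group mean of at least 1 TPM and no overlap, the 3 members of lowest FDR per list (2 where none was called), and a short fixed set of fat, macrophage and receptor genes. Members that complete a count were added after values were seen. The members and the 32 gene lists (480 genes) were chosen with earlier results of these data known. Promoter sequences are from RefSeq (GRCm38.p6). Some items are not reported here.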

Additional observations from a re-analysis of the deposited data

Results flagged for a closer look

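In 6 of 128 groups of 6 values, for the genes named above, 1 library stood apart by Dixon's test, and chance alone gives about 1 in 20. These were Fkbp5 in vehicle library 6 (63.99 TPM), Cry1 in vehicle library 2 (16.39 TPM), Glp1r in vehicle library 5 (0.09 TPM), Pfkfb3 in semaglutide library 31 (87.94 TPM), Dbp in semaglutide library 33 (26.27 TPM) and Ciita in semaglutide library 33 (10.39 TPM). The last of these lies toward the other group, as do the values of Fkbp5, Cry1, Pfkfb3 and Dbp.

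For 9 of 64 named genes the log2 fold change in eWAT differed from that in liver. This was a test of the difference itself in limma (FDR over all genes). Some of the 64 were not tested in liver. Over all 14617 genes tested in both tissues and not counted apart, 4450 (30.4%) differed at the FDR alone. The flag therefore does not set the named genes apart from genes at large. The difference, eWAT minus liver, was 2.12 for Tcf23 (FDR 0.00706), 1.53 for Net1 (1.05e-05), -4.29 for Peg10 (4.62e-05), -2.09 for Trp53inp2 (1.22e-09) and -1.53 for Dgat2 (0.00189). It was -0.97 for Scd2 (0.0363), -0.99 for Hp (0.00958), -1.27 for Nr1d1 (0.00727) and -1.60 for Ighd (0.0239). Tcf23 was at a mean of 0.0883 TPM in vehicle liver and Peg10 at 0.103 TPM.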

How the results depend on the processing

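The counts of 55 genes higher and 193 lower moved with the threshold, test, filter, covariate and libraries kept. They were 35 and 121 with at least 10 counts in every library, 98 and 413 with DESeq2, 18 and 74 on log2(TPM + 1), and 18 and 70 on that scale with no filter. Genes lower were 365 by edgeR's quasi-likelihood test, 104 with the 12 libraries fitted alone and 360 with no gene set aside. Genes higher were 96 with sample quality weights. With hepatocyte transcripts as a covariate, an alternative added after seeing the data, 256 were higher and 240 lower. In that alternative falls no longer outnumbered rises. The FDR alone gave 333 and 643. Leaving out 1 library gave 41 to 107 higher and 122 to 236 lower. Without semaglutide library 35 or vehicle library 4 there were 107 and 85 higher, and without semaglutide library 32 or 36 there were 122 and 127 lower. The cause was not tested. DESeq2 called 5 genes between doses and 2 between compounds, against 0 and 0, and leaving out 1 library gave 0 to 0. With a log2 difference of at least 1 as well, 754 genes differed between tissues.

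Of 1113 values for the 43 named genes that were called, 1002 kept their call, 111 lost it and 0 changed sign. Among those whose calls were often lost were Ms4a1 (16 of 26 alternatives), Fasn (15) and Cd79a (14). Sign changed only for genes that were not called. Left-out groups of vehicle libraries and the covariate were chosen after seeing the data. Rnase10 gave -0.02 by quasi-likelihood, -0.02 by DESeq2, -0.14 without vehicle libraries 1 and 3 and -0.42 without 2, 3 and 4. Adgre1 gave 0.21 and 0.23 and Mki67 0.03 and 0.04 under the latter pair, Retn -0.29 without 2, 3 and 4. With quality weights and with the covariate Hba-a1 gave 0.12 and 0.43, Hbb-bs 0.13 and 0.46, Adipoq 0.05 and 0.20, and Col1a1 -0.10 and -0.32. Col1a1 gave -0.07 and Ucp1 0.31 without vehicle libraries 1 and 3, and Trem2 -0.01 with the covariate. Ucp1 gave 0.00 with RLE factors, 0.02 with library size alone, 0.04 with no filter, 0.02 by quasi-likelihood, 0.04 by DESeq2, 0.00 on log2(TPM + 1) with and without the filter and 0.17 with quality weights. With 1 library left out the values ranged from -0.23 to 0.06 for Adgre1, -0.21 to 0.07 for Adipoq, -0.01 to 0.39 for Col1a1, -0.40 to 0.17 for Hba-a1, -0.36 to 0.19 for Hbb-bs, -0.32 to 0.04 for Mki67, -0.14 to 0.21 for Retn, -0.11 to 0.30 for Rnase10 and -0.37 to 0.36 for Ucp1. No paired analysis was possible because the labels name no pairs of samples between the groups. Depth limits genes of few reads, such as Glp1r.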

Other observations

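Mesothelial genes, which mark the lining of the fat pad, lay above 0 in all 8 tested members (median log2 fold change 0.91, range 0.22 to 1.19), while 0 were called by limma/voom, edgeR's quasi-likelihood test or DESeq2. Their summed level was 16.19 to 207.1 TPM in vehicle and 52.48 to 151.6 TPM under semaglutide, so the groups overlapped. Fatty acid oxidation genes lay below 0 in all 12 tested members, by small amounts (median -0.14, range -0.32 to -0.02). The matrix gene Sparc, which binds collagen, had medians of 2551 and 1631 TPM (-0.77 ± 0.19, FDR 0.0117 in limma/voom), while Mmp14, a membrane collagenase, had medians of 101.5 and 148.8 TPM (0.51 ± 0.15, FDR 0.037). Ly6a, the surface marker Sca-1 of fat progenitors, gave 0.36 ± 0.09 (FDR 0.00976).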
